A study of Mus musculus with 12 samples.

Results

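The genes described here are those whose transcript level in mouse cerebral vessels was lowered within 30 min of a systemic dose of lipopolysaccharide (LPS), the cell wall component of Gram-negative bacteria that is used to mimic sepsis. They were chosen from the normalised gene counts: with 20 added to each group mean, the log2 ratio of the 15 min or the 30 min group to the PBS group was at most -0.9, and the PBS mean was at least 100. Genes on the X and Y chromosomes, genes of the Slc transporter family and 10 other genes were left out. The rule found 114 genes among 12181 that could have been chosen and 54331 in the whole gene table. The genes were then sorted by their level at 4 h, with the same offset of 20. A gene counted as still lowered where its log2 ratio to PBS was at most -0.9, as partly recovered up to -0.45, as recovered up to 0.9, and as above PBS from there. The class names describe the 4 h level alone, and a gene may have been nearer PBS at 30 min. The recovered range lies on both sides of PBS.

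The animals were wild type C57BL6 mice of both sexes, 2 to 3 months old. They received PBS or LPS at 10 mg/kg intraperitoneally, and vessels were isolated from the forebrain, without the meninges, after 15 min, 30 min or 4 h of LPS. Each of the 4 groups held 3 libraries, and each library pooled vessels of 1 male and 1 female, or 6 mice per group. Total depth was between 18.3 M and 25.9 M sequenced fragments per library. Mitochondrial transcripts took 6.33 to 6.49% of fragments in PBS, 5.77 to 6.02% at 15 min, 7.61 to 8.01% at 30 min and 9.15 to 9.41% at 4 h, and their part in the results was not tested. The preparation was a crude vessel fraction, so the libraries also held transcripts of cells around the vessels, and fewer cells of a type and less RNA per cell cannot be told apart in such bulk samples. Neither the hour of injection nor the time between PBS injection and collection is given in the sources used here, so the hour of collection and the treatment cannot be told apart.

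Brain endothelial cells form the blood-brain barrier through tight junctions, and are wrapped by pericytes, smooth muscle cells, perivascular fibroblasts and astrocyte endfeet. How fast a transcript level can fall is bounded by how quickly that RNA is degraded. Vessels that meet LPS are best known for the genes they induce, such as adhesion molecules and chemokines. The lowered genes include endothelial receptors and junction proteins, matrix proteins of mural cells and fibroblasts, and linker histones.

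The 15 min threshold was passed by 0.591% of the eligible genes and the 30 min threshold by 0.599%. The 15 min criterion alone was met by 41 genes, the 30 min criterion alone by 42, and both by 31. At 4 h, 69 of the 114 were still lowered, 12 were partly recovered, 18 were recovered and 15 were above PBS. The median log2 ratio to PBS over all 114 was -0.95 for the first LPS group, -0.95 for the second and -1.19 at 4 h. Over the 12067 genes that could have been chosen but were not, the corresponding medians were -0.02, -0.02 and -0.06. At 4 h 11.4% of all 12181 eligible genes had a log2 ratio of at most -0.9, and 14.2% had one of at least 0.9, against 60.5% and 13.2% of the chosen genes. The share still lowered therefore lay above the background and the share above PBS near it. The partly recovered and recovered ranges held 10.53% and 15.79% of the chosen genes, and 16.47% and 58.35% of the eligible genes not chosen. Of the 18 recovered genes, 4 had 4 h libraries wholly below PBS and 6 wholly above, against 32.9% and 33.8% of all genes tested. All classes were read against the same PBS libraries that chose the genes, so these shares are a description. The level was lower at 4 h than at the early trough in 62 of the 114.

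**Figure D1:**
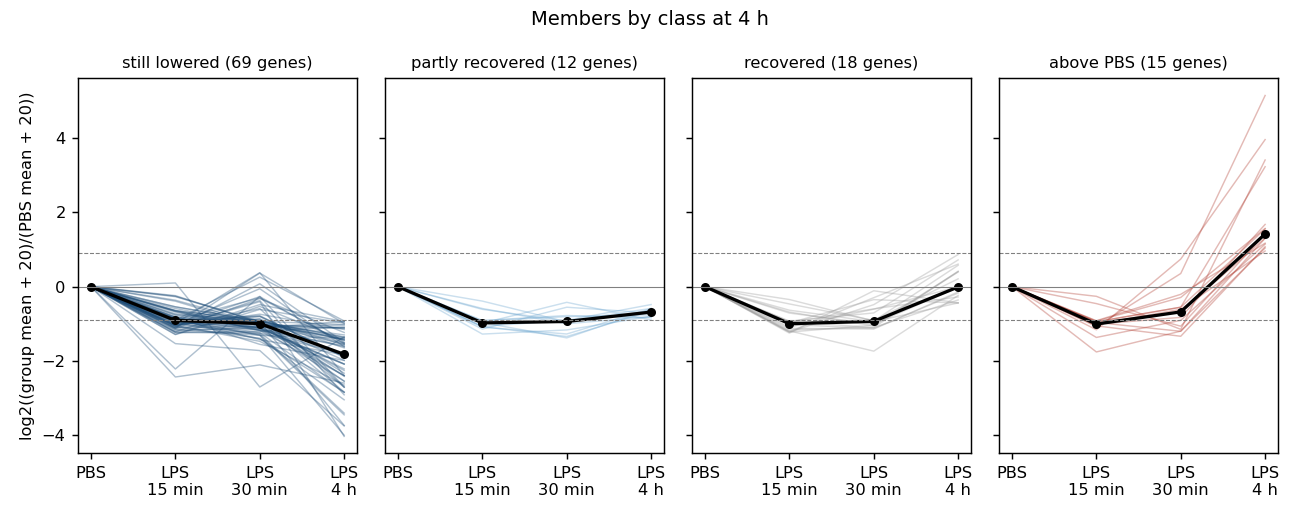
Log2 ratio of group means to the PBS mean (y axis, 20 added to each mean) in the PBS group and the 3 LPS groups (x axis), with 1 thin line per gene, 1 panel per class at 4 h and the class median in black. Dashed lines mark -0.9 and 0.9. The median of the 69 still lowered genes went from -0.99 at 30 min to -1.82 at 4 h, while that of the 15 genes above PBS went from -0.68 to 1.42.

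Of the 41 genes past the threshold at 15 min only, 21 were still lowered at 4 h and 9 were above PBS. Of the 42 past it at 30 min only, 32 were still lowered and 2 were above PBS. Of the 41, 19 were already back within a log2 ratio of -0.45 of PBS or above it at 30 min. Of these 19, 11 counted as still lowered at 4 h. That class thus holds genes that were low throughout and genes that were low, back and low again. The difference in 4 h shares between the 15 min only and the 30 min only genes was not tested, since the members of both lists were chosen on the same PBS libraries.

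**Figure D2:**
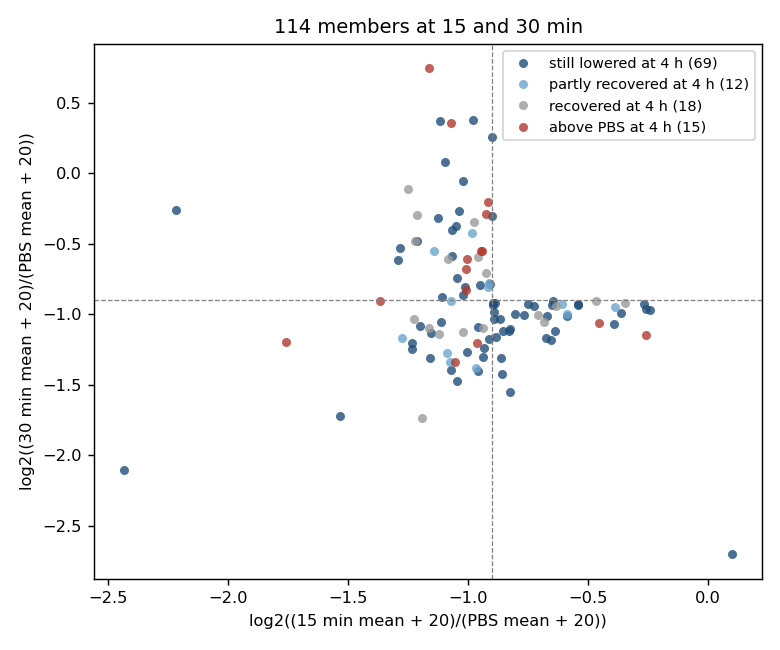
Log2 ratio to PBS at 15 min (x axis) and at 30 min (y axis) for each of the 114 genes, coloured by class at 4 h, with dashed lines at the threshold of -0.9. Points left of the vertical line and below the horizontal line are the 31 genes past both. The 41 genes past the 15 min threshold only lie in the upper left, up to a 30 min ratio of 0.74.

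The count model was used to compare LPS times outside the criterion by which each set of genes was taken. It was edgeR's quasi-likelihood fit with a test against a fold change of 1.5, adjusted by the Benjamini-Hochberg method over 19150 genes, and a change was called at an adjusted p under 0.05. All 114 genes passed its filter on low counts. The 72 genes that met the 15 min criterion were compared between 4 h and 30 min, for which neither the 15 min nor the PBS libraries are used. Of the 72, 29 were called lower and 21 higher at 4 h, or 40.3% and 29.2%, against 11.8% and 16.9% of all genes tested. Among the 12175 eligible genes tested, which share the PBS minimum, the shares were 14.2% and 16.4%. Their median log2 fold change was -0.30, against -0.04 over all genes. The 73 genes that met the 30 min criterion were compared between 4 h and 15 min in the same way. Of the 73, 33 were called lower and 12 higher, or 45.2% and 16.4%, against backgrounds of 16.6% and 19.4%, with a median of -0.74 against -0.05. Among the eligible genes tested, the backgrounds were 19.8% and 18.9%. Both comparisons had calls in both directions, and they share the 4 h libraries. The 31 genes past both thresholds, Heyl and Dkk2 among them, are in both sets. For these genes the earlier time compared was itself past the other threshold. A test is given only for these undivided groups and for Vegfc, which was named by a pathway list and met the 30 min criterion alone. The pathway lists were themselves drawn up with earlier results of these data known. Heyl and Dkk2, also named by a list, were past both thresholds and are given with an SE and no test. The other genes were named by their early ratio, sorted by their 4 h level or chosen after their values were seen, so their log2 differences between LPS times come from the same fit with an SE and no test.

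Endothelial surface genes stood among the genes lowered at every time. Over all genes tested, the LPS libraries lay wholly below the PBS libraries for 23.2% at 15 min, 21.6% at 30 min and 32.9% at 4 h. Aplnr (chr2:85136225-85139923 of GRCm38.p6, plus strand), the receptor of the peptide apelin, had normalised counts of 392, 398 and 427 in the 3 PBS libraries, 133, 120.3 and 127 at 15 min, 109.7, 99.3 and 118 at 30 min and 3.4, 13.3 and 18.1 at 4 h. The groups did not overlap PBS at any time, and the 4 h libraries held 2.86% of the PBS mean. The log2 difference between 4 h and 30 min was -3.21 ± 0.252 (SE). Myct1 (chr10:5593775-5606904, plus strand), an endothelial membrane protein, had 744, 757 and 741 in PBS, 374, 315 and 364 at 15 min, 243, 249 and 278 at 30 min and 98.6, 82.6 and 125 at 4 h. Each later group lay wholly below the one before it, and 4 h was below 30 min by -1.32 ± 0.127 on the log2 scale.

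Further endothelial genes among the 114 were chosen for description after their values were seen. Clec14a (chr12:58264720-58269290, minus strand), a lectin-like receptor of endothelial cells, had 3862, 3789 and 3682 in PBS, 1884, 1866 and 1867 at 15 min, 1533, 1553 and 1577 at 30 min and 389, 277 and 348 at 4 h. Its 12 libraries fell into 4 separate levels in the order of time, and 4 h lay below 30 min by -2.21 ± 0.0659. Cldn5 (chr16:18776847-18778262, plus strand), the main claudin of blood-brain barrier tight junctions, had 51719, 53682 and 52123 in PBS, 30933, 31153 and 31373 at 15 min, 27452, 27622 and 27818 at 30 min and 10418, 10564 and 10288 at 4 h. It passed the rule at 30 min only, with a log2 ratio of -0.93 after -0.75 at 15 min. Against 15 min, its 4 h level was lower by -1.58 ± 0.022. Per length, Cldn5 was among the most abundant of the 114, at 3189 ± 66.7 TPM (transcripts per 1 M, corrected for transcript length; SD, n = 3) in PBS and 344 ± 5.26 at 4 h.

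**Figure D3:**
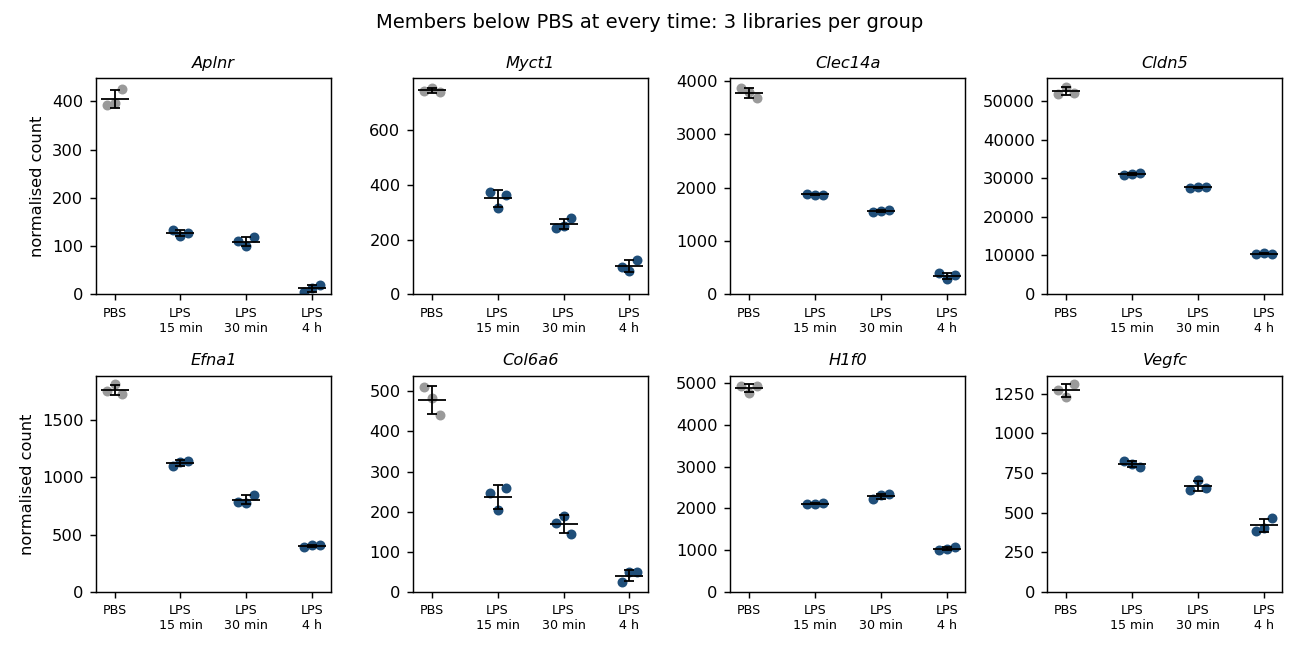
Normalised count (y axis, from 0) in each library of 8 genes that were below PBS at every time, by group (x axis). Points are libraries, and bars give the mean and SD of 3. No LPS library of these 8 genes reached a PBS library.

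RefSeq promoter windows of the GRCm38.p6 build, from 250 bases before to 50 bases after the annotated start, were found for 73 of the 114 genes, as 82 windows. Myct1, Clec14a and Cldn5 are shown because they are endothelial genes that moved together at every time. The lines give the 250 bases before the start, 5′ to 3′ on the strand of the gene, with the motif matches in capitals.
Myct1, chr10:5593478-5593727, plus strand: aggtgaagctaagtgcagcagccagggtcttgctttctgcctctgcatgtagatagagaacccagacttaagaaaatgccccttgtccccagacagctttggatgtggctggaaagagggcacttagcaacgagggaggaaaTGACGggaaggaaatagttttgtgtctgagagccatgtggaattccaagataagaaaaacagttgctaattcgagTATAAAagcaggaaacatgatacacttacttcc
Clec14a, chr12:58269259-58269508, minus strand: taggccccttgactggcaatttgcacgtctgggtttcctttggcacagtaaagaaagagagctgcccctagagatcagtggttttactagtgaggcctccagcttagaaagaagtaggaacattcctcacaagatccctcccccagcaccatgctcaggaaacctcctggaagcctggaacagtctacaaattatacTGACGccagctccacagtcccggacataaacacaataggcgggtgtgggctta
Cldn5, chr16:18776597-18776846, plus strand: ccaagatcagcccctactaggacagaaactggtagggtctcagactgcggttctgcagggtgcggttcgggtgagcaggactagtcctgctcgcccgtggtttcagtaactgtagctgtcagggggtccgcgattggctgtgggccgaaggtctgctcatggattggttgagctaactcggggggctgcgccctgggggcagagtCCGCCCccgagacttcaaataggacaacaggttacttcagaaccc
The Myct1 sequence held a TATA box (TATAAA) that began 33 bases before the start, and the shorter motif of the cAMP response element (TGACG) at 108 bases. The Clec14a sequence held that shorter motif at 53 bases, and the Cldn5 sequence held a GC box (GGGCGG, here on the opposite strand) at 45 bases. No motif was common to all 3.

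Over the 82 windows of 300 bases, both strands were searched for 11 motifs. The shorter motif TGACG was in 14.6% of the windows of the lowered genes and in 30.6% of the 11946 windows of eligible genes that were not chosen. The TATA box was in 9.76% against 6.86%, the GC box in 57.3% against 62.5%, and the Notch effector motif of RBPJ (TGGGAA) in 24.4% against 23.1%. The AP-1 motif (TGANTCA) was in 6.1% against 4.91%, the FOXO motif (GTAAACA) in 3.66% against 2.56%, and the E-box of clock factors (CACGTG) in 3.66% against 9.64%. The D-box (TTATGTAA) was in 2 windows, or 2.44% against 0.477%. The full cAMP response element (TGACGTCA, which contains the shorter one), the NF-kB motif and the CArG box of SRF were in none of the 82, and in 3.08%, 0.176% and 0.0251% of the others. The median GC content of the windows was 58.5% against 61%. A match is a run of letters, and none of these shares was tested.

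Col6a6 (chr9:105687809-105828160, minus strand), a chain of collagen VI, had 510.4, 484 and 440.0 in PBS, 246, 203 and 259 at 15 min, 173, 189 and 145 at 30 min and 23.8, 48.7 and 48.2 at 4 h. It was stepwise lower, with a log2 difference of -2.02 ± 0.196 between 4 h and 30 min, and its exons overlap an antisense gene, Gm38314, which counting without strand cannot tell apart. H1f0 (chr15:79028450-79030504, plus strand), a linker histone found in cells that have stopped dividing, had 4923, 4766 and 4933 in PBS, 2091, 2111 and 2116 at 15 min, 2223, 2307 and 2340.1 at 30 min and 1002, 1017 and 1082 at 4 h. The 30 min libraries of H1f0 lay slightly above those of 15 min, and 4 h was lower than 30 min by -1.14 ± 0.04.

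Hist1h1c, another linker histone gene with close paralogs, followed a similar course, with 1945 ± 14.6 (SD, n = 3) in PBS, 892 ± 54.6 after 15 min, 1049 ± 71.3 after 30 min and finally 607 ± 50.8. Ndnf, which encodes a secreted factor of vessels and neurons, was at 2217 ± 490.1 in PBS and 184 ± 151 at 4 h. Its reads spread less, at 82.1, 81.6 and 84.5 reads per 1 M (CPM) in PBS and 6.24, 6.33 and 5.87 at 4 h, so the spread was in the length-corrected values and not in the reads. Its log2 ratio at 30 min was -1.30 in the gene table and -0.92 in the count model. Bche, the plasma cholinesterase, was at 927 ± 33.2 in PBS, 431 ± 15.9 at 15 min, 340.2 ± 48.5 at 30 min and 112 ± 9.34 at 4 h. Efna1, an ephrin ligand of endothelial cells, went from 1766 ± 44.7 through 1127 ± 27.3 and 803 ± 39.5 to 401 ± 8.8. Prickle1, of the planar cell polarity pathway, had 2638 ± 64 in PBS, 2186 ± 62 at 15 min, 1374 ± 25.7 at 30 min and 352 ± 0.637 at 4 h. For the latter pair, which met the 30 min criterion alone, 4 h lay below 15 min by -1.46 ± 0.0578 and -2.63 ± 0.05. These genes and the histones were also described after their values were seen.

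Vegfc, the lymphatic growth factor that signals through VEGF receptor 3, was the member of the list of 26 growth factor ligands. It had normalised counts of 1273, 1230.2 and 1315 in PBS, 825, 806 and 785 at 15 min, 642, 707 and 658 at 30 min and 386, 404 and 465 at 4 h. The groups followed in order without overlap, and 4 h was below 15 min by -0.96 ± 0.0697 (edgeR adjusted p = 8.66e-06). Vegfc was chosen by its 30 min ratio to PBS, so it is left out of the counts of calls against PBS. Of the other 22 growth factor genes tested, 0 were called lower at 15 min and 0 at 30 min, while 4 were called lower and 6 higher at 4 h. Over all genes 0.872% were called lower at 15 min, 0.799% at 30 min and 13.8% at 4 h, and 19.0% were called higher at 4 h.

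Notch signalling between endothelial and mural cells drives genes of the Hes and Hey families. Heyl (chr4:123233556-123249875, plus strand), a Notch target of mural cells, was the one member among 13 Notch targets and ligands. It had 1385, 1301 and 1304 in PBS, 527, 542 and 591 at 15 min, 491, 663 and 546 at 30 min and 639, 605 and 607 at 4 h. The 4 h libraries of Heyl lay within the 30 min range, with a log2 change from 30 min of 0.15 ± 0.0832. Heyl was chosen by its early ratios to PBS, so it is left out of the counts of calls against PBS. Of the other 12 Notch genes, 0 were called lower at 15 min, 0 at 30 min and 7 at 4 h. Dkk2, a secreted modulator of Wnt signalling, was the one member among 13 Wnt target genes and is left out for the same reason. Of the other 12 Wnt genes, 1 was called lower at 15 min, 0 at 30 min and 7 at 4 h. The call at 15 min was Tnfrsf19. The normalised counts of Dkk2 were 313, 328 and 317 in PBS, 143, 118 and 115 at 15 min, 135, 140.0 and 162 at 30 min and 468, 404 and 417 at 4 h. Dkk2 was low at both early times and above the PBS libraries at 4 h, and 4 h lay 1.56 ± 0.116 above 30 min on the log2 scale.

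None of the 114 was on the lists of 19 clock genes, 19 FOXO-linked and starvation genes, 15 BMP and SMAD targets, 17 endothelial transcription factors, 13 ERK feedback genes or 20 cell cycle genes. Of the 19 clock genes, which set the daily rhythm of transcription, 0 were called lower and 10 called higher at 15 min, and 8 called higher at 30 min, against 3.31% and 3.78% of all genes called higher. The count of 0 members is partly set by the rule and the list, since the rule left out a core clock gene that the list does not hold either, and Arntl2, a paralog among the 114, was not on the list. Arntl2 had 205, 635 and 298 in PBS and 286, 141 and 136 at 30 min, which overlapped, and 8.73, 10.2 and 9.47 CPM in PBS. Of the other lists, BMP and SMAD targets held 1 gene called lower at 15 min, and the others held 0 called lower at either early time.

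Eln (chr5:134702593-134747323, minus strand), which encodes elastin, had 19361, 20329 and 20039.6 in PBS, 9577, 9474 and 9410.4 at 15 min, 15280.3, 14924 and 14953 at 30 min and 1185, 1192 and 1216 at 4 h. Its level lay between the PBS and 15 min levels at 30 min, and the log2 difference between 4 h and 30 min was -3.64 ± 0.0307. Ptgds, the prostaglandin D synthase of the leptomeninges and fibroblasts, was per length the most abundant of the 114, at 13119.8 ± 329.7 TPM in PBS. Its normalised counts were 107148, 105435 and 111958 in PBS, 58656, 58075 and 56882 at 15 min, 128770.0, 127652 and 131425 at 30 min and 58438, 56294 and 56269 at 4 h. Ptgds was therefore low, above PBS and low again at the successive times, and 4 h was below 30 min by -1.20 ± 0.02.

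Both fibrillar collagen genes of the 114 were below PBS at all 3 times. Col1a1 was at 1997 ± 115 in PBS, 1054 ± 23.7 at 15 min, 1150.2 ± 72.5 at 30 min and 518 ± 29.7 at 4 h. Col3a1 was at 1860.5 ± 219, 890.0 ± 13.1, 1105 ± 109 and 825 ± 170.3 in the same groups. The log2 difference between 4 h and 30 min was -1.16 ± 0.0659 for Col1a1 and -0.25 ± 0.0613 for Col3a1. Eln and the collagens were described after their values were seen.

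Ptgds and Padi2 lay just inside the threshold, with log2 ratios of -0.902 and -0.901 at 15 min. Padi2, a peptidyl arginine deiminase, was at 337 ± 29.3 in PBS, 171 ± 14.3 at 15 min, 269 ± 23 at 30 min and 105 ± 12.6 at 4 h. Olfr558 and Filip1 lay just outside, with their lowest early ratios at -0.898 and -0.897, so the threshold falls within a continuous range of values.

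The genes that came back were fewer. Synpo2 (chr3:123076519-123236149, minus strand), an actin-binding protein of smooth muscle, had 2297, 2232 and 2428 in PBS, 817, 1063 and 956 at 15 min, 1127, 973 and 968 at 30 min and 1381, 1285 and 1305 at 4 h. Every 4 h library of Synpo2 lay above the early libraries and below PBS, and the log2 difference between 4 h and 30 min was 0.43 ± 0.0505. Cirbp (chr10:80165985-80172786, plus strand), the cold-inducible RNA-binding protein, had 2289.9, 2486 and 2299 in PBS, 1103, 1092 and 1096 at 15 min, 886, 1032 and 970.3 at 30 min and 1541, 1584 and 1553 at 4 h. Its 4 h level was above 30 min by 0.78 ± 0.051 on the log2 scale, and at 66.1% of the PBS mean. Npnt, the matrix protein nephronectin, had 1529.7, 1595 and 1494 in PBS, 700.1, 653 and 674 at 15 min, 766, 698 and 662 at 30 min and 1196, 1120.2 and 1273 at 4 h. At 4 h it was above 30 min by 0.80 ± 0.0584 and below the PBS libraries.

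Gfap, the intermediate filament of astrocytes, had 3811, 3916 and 4255 in PBS, 1793, 1724 and 1621 at 15 min, 3249, 3224 and 3273 at 30 min and 6187, 6114 and 5991 at 4 h. All 4 groups were separate, with the lowest level at 15 min, and 4 h was above 30 min by 0.92 ± 0.0393. Gjb2, which encodes connexin 26, moved likewise, at 816 ± 82.3 in PBS, 338 ± 18.4 at 15 min, 578 ± 52.6 at 30 min and 1504 ± 68.2 at 4 h. Rasl11a, a small GTPase, was at 249 ± 24.5, 113 ± 6.61, 103 ± 3.89 and 219 ± 42.8 in the same order, with a log2 difference between 4 h and 30 min of 1.10 ± 0.15. Serpind1, the thrombin inhibitor heparin cofactor II, was lowest at 15 min, with 177 ± 34.2 in PBS, 62.8 ± 9.16 at 15 min, 163 ± 23.1 at 30 min and 126 ± 14.9 at 4 h. The PBS range was overlapped at 30 min, and all libraries of 15 min and 4 h lay below it.

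**Figure D4:**
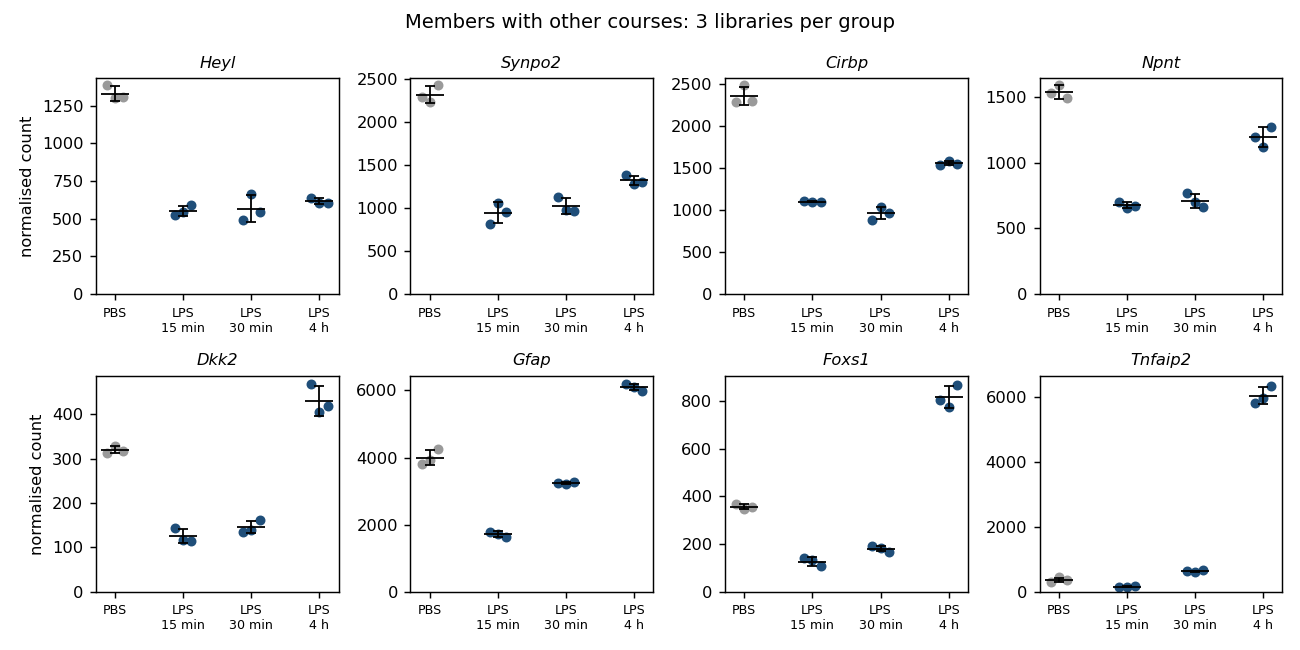
Normalised count (y axis, from 0) in each library of 8 genes with other courses, by group (x axis). Points are libraries, and bars give the mean and SD of 3. Heyl stayed near its early level, Synpo2, Cirbp and Npnt lay between, and Dkk2, Gfap, Foxs1 and Tnfaip2 were above their PBS libraries at 4 h.

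The class above PBS at 4 h was set by the 4 h level, so the later increases of its genes are a description. Foxs1, a forkhead transcription factor of pericytes, had 369.7, 346 and 356 in PBS, 141, 132 and 106 at 15 min, 193, 183 and 168 at 30 min and 804, 775 and 866 at 4 h. The log2 difference between 4 h and 30 min was 2.17 ± 0.1. Tnfaip2, a gene induced by tumour necrosis factor, had 311, 439 and 355 in PBS, 151, 137 and 173 at 15 min, 626, 610.2 and 654 at 30 min and 5811, 5965 and 6324 at 4 h. Tnfaip2 was below PBS at 15 min and above it from 30 min, and 4 h lay 3.41 ± 0.0414 above 30 min on the log2 scale. Stx11, a syntaxin of immune cell secretion, had 105, 162 and 159 in PBS, 77.1, 47.6 and 46.4 at 15 min, 194, 145 and 223 at 30 min and 5440.4, 5549 and 6223 at 4 h, with a log2 difference of 4.42 ± 0.0743 between 4 h and 30 min. Its PBS libraries differed among themselves, and its 30 min libraries overlapped them.

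The antisense transcript 9530082P21Rik, whose exons overlap Flywch1 and Kremen2, was at 729 ± 16.5 in PBS, 340.2 ± 12.2 at 15 min, 277 ± 22.2 at 30 min and 1558 ± 92.6 at 4 h. Gm12216 was at 139 ± 25.9, 61.6 ± 13.5, 49.2 ± 8.93 and 373 ± 66.8 in these groups. Of genes described after their values were seen, Gm13889 was at 2660.1 ± 33.4 in PBS, 1369 ± 47.9 at 15 min and 25142 ± 804 at 4 h. Mmp14, a membrane metalloproteinase, was at 782 ± 14.4, 379 ± 29.8 and 1965 ± 103, and Itgb3, the integrin beta 3 chain, at 286 ± 40.8, 132 ± 0.241 and 957 ± 55.2. Each of these 5 genes had 15 min libraries wholly below PBS and 4 h libraries wholly above it, as had 23.2% and 33.8% of all genes tested, taken separately.

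The return at 4 h depended on how libraries were scaled. Library size alone was also used, without edgeR's TMM correction for differences in makeup between libraries. It moved the median of all genes at 4 h against PBS by -0.70 on the log2 scale, against -0.02 at 15 min and -0.16 at 30 min. Under that scaling the count model's log2 change from PBS at 4 h turned from 0.65 to -0.06 for Gfap and from 0.45 to -0.25 for Dkk2, and 84 of the 114 were still lowered at 4 h, 6 were partly recovered, 15 were recovered and 9 were above PBS. TPM, which is such a share of each library, gave Gfap 115 ± 5.75 in PBS and 95.6 ± 2.48 at 4 h, and Foxs1 23.5 ± 0.902 and 29.1 ± 1.74 (SD, n = 3 each). All changes above are relative to the bulk of genes in the same libraries.

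Some of the genes furthest from PBS rested on scattered libraries. Gm28438, a pseudogene, had 515, 489 and 0 in PBS, 773, 0 and 307 at 15 min, 25.8, 77.6 and 0 at 30 min and 0, 356 and 0 at 4 h. Fam205a3, of a family with close copies, had 534, 452 and 0 in PBS, 398, 0 and 0 at 15 min, 254, 0 and 0 at 30 min and 304, 257 and 267 at 4 h. Gm20458 had 239.8, 163 and 32.2 in PBS, 0, 76.5 and 117 at 15 min, 113, 0 and 17.7 at 30 min and 0, 118 and 148 at 4 h, and shares exons with Dbndd2 and Sys1. In all 3, libraries at 0 stood beside libraries with ample counts within one group.

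Others had 1 or 2 high PBS libraries. Ikzf1, which encodes the lymphoid factor Ikaros, had 41.6, 372 and 46.5 in PBS, 42.3, 23.3 and 28.2 at 15 min, 39.1, 52 and 75.8 at 30 min and 306, 353 and 353 at 4 h. The 3 PBS libraries held 2.10, 3.37 and 2.29 reads of Ikzf1 per 1 M (CPM), so the gap between PBS libraries was in the length-corrected gene table and not in the reads. Espl1, the separase, had 429, 79.4 and 99.9 in PBS and 23.7, 39.2 and 20.7 at 15 min, and the antisense transcript H3f3aos had 30.8, 227 and 192 and 8.9, 13.1 and 12.4. Their reads were 3.60, 3.64 and 4.24 CPM for Espl1 in PBS and 1.61, 1.82 and 1.98 for H3f3aos, without such a gap between libraries.

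Inpp5d, the inositol phosphatase SHIP1 of leukocytes, had 868, 1551 and 535 in PBS and 338, 391 and 334 at 30 min, and Lyrm7, a mitochondrial assembly factor, had 107, 245 and 102 and 47.7, 86.1 and 39.4. Rac2, a small GTPase of blood cells, had 57.5, 73.4 and 211 in PBS, 42.9, 41.6 and 36.4 at 30 min and 1859, 505 and 1849.9 at 4 h. Ikzf4, a relative of Ikaros, had 105, 264 and 116 in PBS and 82, 59.6 and 59 at 30 min, and the channel subunit gene Cngb1 had 85.8, 180.5 and 146 and 31.5, 57.7 and 11.8. The potassium channel gene Kcnq1, whose exons overlap the antisense Kcnq1ot1, had 570.4, 339 and 404 in PBS and 191, 167 and 205 at 15 min. The normalised counts of these 6 genes were spread widely over the PBS libraries. Their reads in PBS were 29.6, 31.6 and 26.7 CPM for Inpp5d, 4.08, 4.15 and 4.16 for Lyrm7 and 16.7, 18 and 15.3 for Kcnq1, where most of the spread was absent. They were 3.37, 4.35 and 3.55 for Rac2, 2.1, 2.77 and 3.13 for Cngb1 and 2.06, 1.82 and 5.15 for Ikzf4, whose PBS replicate 3 was high in reads and not in the gene table.

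The remaining genes named by rule varied less. Gm42528 was at 387 ± 12.5 in PBS, 173 ± 17.3 at 15 min, 141 ± 32.7 at 30 min and 238 ± 61.7 at 4 h. Cited4, a transcriptional coactivator, was at 127 ± 17.8, 50 ± 10.2, 58.3 ± 6.42 and 85.2 ± 19.5. Zfp784, a zinc finger gene, was at 194 ± 17.1, 123 ± 16.7, 87.2 ± 31 and 103 ± 24.8, and the homeobox gene Nkx6-1 at 261 ± 28.6, 122 ± 17.9, 189.5 ± 22.3 and 130.4 ± 25.

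The log2 change in the count model and that in the gene table differed by more than 0.5 at the early trough in 17 of the 114, Gm28438, H3f3aos, Espl1, Ikzf1, Cngb1, Inpp5d, Rac2, Kcnq1, Lyrm7 and Ikzf4 among them. In all of these except Gm28438 the fall was smaller in the count model. There the lowest early log2 change was 0.02 for Ikzf4, 0.09 for Klhdc1 and -0.19 for Arntl2. The reads of Ikzf4 and Klhdc1 thus showed no early fall. With 1 library left out at a time, 71 of the 114 met the rule every time, and 72 met it on counts scaled by edgeR's TMM method, with 58 in both groups. Of the 58, 35 were still lowered, 6 partly recovered, 11 recovered and 6 above PBS at 4 h, or 60.3%, 10.3%, 19.0% and 10.3%, close to the shares over all 114. Of the genes named above, Vegfc, Ptgds, Padi2, Arntl2, Espl1, Ikzf1, Rac2, Lyrm7 and Ikzf4 failed both checks. Cldn5, Col3a1, Tnfaip2, Stx11, Gm12216, Kcnq1, Cngb1, Inpp5d and H3f3aos failed on TMM-scaled counts only. Col1a1, Gm20458 and Zfp784 failed only when a library was left out. The count model called 60 of the 114 lower at 15 min and 56 at 30 min, and 83 at one or the other. Over all genes tested it called 0.872% lower at 15 min and 0.799% at 30 min. These are the contrasts that chose the genes, and nothing is read from these counts.

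Cell type markers moved with some of these groups. Summed over the smooth muscle markers that were not among the 114, the normalised count was 65113 to 65515 in the PBS libraries, 42512 to 43306 at 15 min, 58412 to 59823 at 30 min and 60166 to 60766 at 4 h. Of these 9 markers, 4 (Acta2, Myh11, Cnn1 and Actg2) were called lower at 15 min. The perivascular fibroblast list without its members Col3a1, Col1a1 and Ptgds summed to 21030 to 21934 in PBS, 16434 to 16767 at 15 min, 21762 to 22221 at 30 min and 16792 to 16871 at 4 h, and of these 7 genes 1, the transporter gene Slc6a13, was called lower at 15 min. The astrocyte list without Gfap summed to 18901 to 21493 in PBS, 15857 to 17867 at 15 min and 27905 to 32304 at 4 h. The part of these shifts in the mural, fibroblast and astrocyte genes that were low at 15 min was not tested.

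Endothelial markers other than Cldn5 summed to 249991 to 253476 in PBS, 227989 to 228107 at 15 min, 215249 to 218034 at 30 min and 177956 to 178891 at 4 h, a log2 ratio of -0.49 at 4 h. Of these 9 markers, 0 were called lower at 15 or 30 min. At 4 h, 4 were called lower and 2 higher, against 13.8% and 19.0% of all genes tested. Their log2 changes from PBS at 4 h in the count model ran from -2.94 for Egfl7 to 1.96 for Cdh5. Aplnr, Myct1, Clec14a and Cldn5 had log2 ratios between -3.75 and -2.33 at that time. Pericyte markers changed by 0.03, -0.06 and -0.14 at the successive times. Neutrophil markers summed to 195 to 234 in PBS and 5838 to 6229 at 4 h, and 9 of 9 were called higher, and their part in the increase of Rac2, Stx11, Ikzf1 and Itgb3 was not tested. Skeletal muscle markers, foreign to vessels, were at 437 to 568 in PBS and 4331 to 4645 at 30 min. Neuron markers summed to 9860 to 10410 in PBS and 14315 to 14785 at 15 min, a log2 ratio of 0.54. Erythrocyte markers had log2 ratios of 0.55, 0.92 and 1.56 at the successive times, and choroid plexus and ependyma markers had -0.17, 0.39 and 0.76. The part of these shifts in the results was not tested. No tested gene of a marker list was at 0 in every PBS library.

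**Figure D5:**
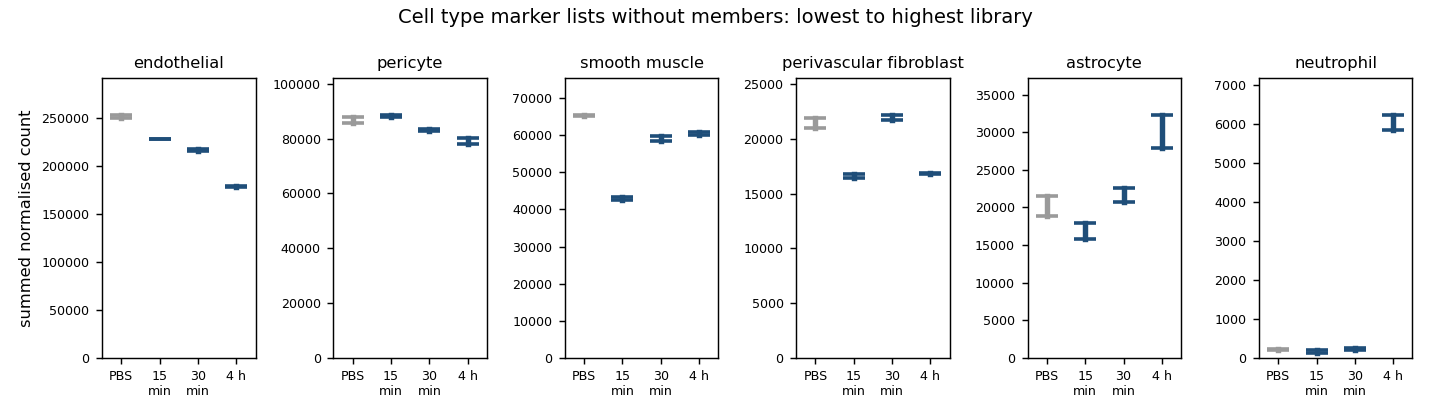
Summed normalised count (y axis, from 0) of 6 cell type marker lists, leaving out any of the 114 genes, by group (x axis). Bars run from the lowest to the highest of 3 libraries. The smooth muscle, fibroblast and astrocyte sums were lowest at 15 min, and the neutrophil sum was high at 4 h only.

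Some features that the rule did not use differed in share or median between the lowered genes and the eligible genes that were not chosen. Protein-coding genes made up 93 of the 114, or 81.6%, against 95.6% of the eligible genes that were not chosen, and lincRNAs made up 7.89% against 1.09%. The transcript with the highest TPM in PBS had 1 exon in 14.9% of them against 4.39%, and the median number of exons was 4 against 8. The median gene spanned 13597 bases against 24928, while the median transcript length was 2654 against 2780 bases. The 30 min only group held the most noncoding genes, 12 of 42, against 3 of 41 in the 15 min only group. The median PBS level was 286 normalised counts against 683 in the genes that were not chosen, and these features were not compared at matched level.

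AUUUA motifs, which mark short-lived RNAs, were looked for in the 3′ untranslated region as ATTTA in the DNA letters, a choice made after the genes were known. They were present in 49 of the 78 regions of the lowered genes, or 62.8%, against 68.4% of the eligible genes that were not chosen. The median was 0.881 motifs per kb over the 78 regions, against 1.25 in those of the genes that were not chosen. It was 1.19 in the 49 regions of still lowered genes and 0 in the 9 of partly recovered genes. In the 12 regions of recovered genes it was 0.719, and in the 8 of genes above PBS 0.300. These class medians rest on few regions and were not tested. Symbols of zinc finger genes made up 4 of the 114, or 3.51%, against 2.94%, and no symbol of the Gpr or Adgr receptor families was among them, against 0.39%.

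The 114 genes lay on 17 chromosomes, with 12 on chromosome 11 and 11 on chromosome 2. The closest pair was Gm38102 and 4932422M17Rik on chromosome 5, 1236 bases apart, both low at 30 min only and still lowered at 4 h. The next closest was 2810410L24Rik and 2900052L18Rik on chromosome 11, 39950 bases apart. Exons of 26 of the 114 overlapped an antisense gene and those of 6 a gene on the same strand, so that part of their reads may belong to the neighbour.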

How the data were processed

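Cerebral vessels of mice were sequenced as 12 libraries, 3 for each of the 4 groups that the labels give. Libraries were made without strand (SMART-Seq v4 and Nextera XT). The authors quantified transcripts with Salmon 1.2.1 on GRCm38.p6 and deposited for each library the estimated counts and TPM per transcript. The authors also deposited a gene table, whose signal is the count divided by DESeq2 size factors and by a length correction for the transcripts used in each library. It is called the normalised count here, and it chose the genes.

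Estimated counts were summed by gene with GENCODE M21, rounded, filtered and fitted over all 4 groups with edgeR 4.0.16 (TMM, glmQLFit, then glmTreat against a fold change of 1.5) for 19150 genes, after a check on simulated data. Log2 fold changes are given with their SE. Transcripts left unjoined held 0.48 to 0.85% of fragments. Comparisons of 15 or 30 min with PBS were used to choose the genes and carry no p-value. Alternatives were DESeq2 1.42.0, limma 3.58.1 on log2(normalised count + 20), other scalings, no filter, a replicate block and leaving out each library. The depth of 18.3 to 25.9 M fragments limits genes near a mean of 100 most.

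The genes, lists and motifs were chosen with earlier results of these data known. Genes named by rule were the 8 with the lowest early ratio in each class, the pairs on both sides of the threshold and the members of the pathway lists. Counts of overlapping exons came from bedtools 2.31.1, and promoters came from RefSeq. Some results on single genes are not reported here.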

Additional observations from a re-analysis of the deposited data

How the results depend on the processing

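Scaling by library size alone gave 11 genes called higher at 4 h against PBS instead of 17, and left 6 genes partly recovered and 9 above PBS instead of 12 and 15. The last 2 counts and all counts by class were added after the data were seen. At 30 min against PBS, DESeq2 called 35 lower instead of 56. The limma fit of the gene table called 30 lower at 15 min instead of 60 and 29 at 30 min. Without the offset of 20 the rule found 189 genes instead of 114, and on TMM-scaled counts 82, of which 72 were shared. In the main fit 19.0% of all genes tested were called higher at 4 h, and 0.872% and 0.799% lower at 15 and 30 min. The shares of all genes under the other settings are not given here, so nothing is read from these counts about the chosen genes. The cause of these shifts was not tested.

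The log2 change at 4 h against PBS turned to -0.250 for Dkk2 and -0.0560 for Gfap under library size alone. For Fam205a3 it turned from -0.21 to 0.766 with limma and to 0.520 with the replicate block. With 1 library left out it ran from -0.797 to 0.309 for Fam205a3 and from -0.224 to 0.00643 for Lyrm7. The other counts stayed within 1.5 times under every alternative run, and the number of genes ran from 114 to 137 with 1 library left out.

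Replicate numbers did not pair the libraries: the 18 correlations of deviations between same-numbered libraries ran from -0.261 to 0.234, and 5 were over 0.1. With a replicate block, 58 genes were called lower at 15 min, 55 at 30 min and 68 at 4 h, 16 were called higher at 4 h, and the calls between LPS times stayed at 50 and 45.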
